A study of Mus musculus with 272 samples.

Results

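Protein ubiquitination was followed at the RNA level through mouse oocyte maturation and preimplantation development, from the enzymes that attach ubiquitin to those that remove it. The 82 genes described were taken by symbol alone from 15854 deposited symbols: 48 ubiquitin-specific proteases (Usp) and 34 genes whose symbol begins with Ube2, most of them E2 ubiquitin-conjugating enzymes. The Usp17-like cluster, Usp9y and pseudogenes were left out. No measured value served as a filter, but the families were chosen with earlier results of these data known. Ube2cbp carries an E2-like symbol but is a ubiquitin ligase by background. The study covered 8 stages, namely the germinal vesicle (GV) oocyte, the metaphase II (MII) oocyte, the zygote, the 2-cell, 4-cell and 8-cell embryo, the morula and the blastocyst. At each stage 4 pools of 20 oocytes or embryos gave transcriptome libraries, and 3 sucrose gradients of 10 to 40%, lettered A to C and each loaded with lysate of about 100 oocytes or embryos, gave 10 fractions each. All gradients carried cycloheximide, which holds ribosomes on transcripts. The labels name the stage as the one difference between groups and give no strain, genotype or age of the animals, and the tissue is labelled only as an oocyte or embryo. They do not say which end of the gradient fraction 1 is, and it is taken here as the light end. Pools came from the batch of oocytes or embryos used for the gradients, but nothing says that the 4 pools of a stage were collected separately, so p-values measure only the spread between these samples.

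Ubiquitin is activated by an E1 enzyme, passed to an E2 and transferred to a substrate, usually with the help of an E3 ligase that chooses it. The E2 often decides which lysine of ubiquitin is used to build a chain and thereby whether the substrate is degraded or signals. Usp proteins are the largest family of deubiquitinases, cysteine proteases that trim or remove these chains and rescue substrates from the proteasome. In oocytes and early embryos the system is known for driving the meiotic divisions through the anaphase-promoting complex (APC/C) and for clearing maternal proteins as the embryonic genome is switched on. Oocytes hold a store of maternal transcripts whose poly(A) tails lengthen or shorten during maturation.

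Values are counts scaled to library size (CPM), as deposited by the authors, given as mean ± SD over 4 pools (n = 4) unless a value is given for each sample. CPM is not scaled to transcript length. Changes are differences of mean log2(CPM + 1), which understate the change of low genes. A gene is called when its adjusted p is under 0.05 and its change is at least 1 on that scale, and a level is a share of poly(A) RNA, so that loss of RNA and loss of poly(A) tail cannot be told apart. Transcriptome libraries held 11.2 to 24.3 M reads. Fraction libraries held 0.0102 to 43.2 M with a median of 18.6 M, and the 11 with under 0.5 M were all fraction 1. Stage markers followed the labels in the transcriptomes: 6 oocyte genes summed to a median of 19800 CPM in GV oocytes and to 58.7 CPM at the 4-cell stage, 4 genes of the 2-cell embryo reached 1650 CPM at that stage, and 6 blastocyst genes reached 2480 CPM in blastocysts. In the fractions the same oocyte genes had a median sum of 696 CPM at the 4-cell stage and 333 CPM at the 8-cell stage, above the 58.7 and 43.7 CPM of the transcriptomes of those stages. Of 10 cumulus and granulosa cell genes, 4 were in the table, and they summed to between 40.9 and 69.7 CPM in the pools of GV and MII oocytes and zygotes, to between 7.76 and 14.0 CPM at the 2-cell stage and to at most 0.361 CPM at the 4-cell stage. In GV pools 3 of these 4 genes had a mean of at least 1 CPM, but only 1 did in MII and 1 in zygotes. At the 2-cell stage 2 did, and Inha was at 0 in every zygote and 2-cell pool. In GV fractions the sum of the 4 genes reached 378 CPM. The part of follicle cells in the values of the first 4 stages was not tested.

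Before the levels, the 5' flanks of 4 members are shown: Usp12 and Usp46 as relatives that moved in opposite directions at the 4-cell stage, Usp28 as another large fall there and Ube2c as the most abundant E2 per kilobase from that stage on. A window of 250 bases before the RefSeq start (GRCm38.p6, 5' to 3' on the gene's strand) was found for 64 of the 82 members, 37 Usp and 27 Ube2, which gave 75 windows. Capitals mark the GC box GGGCGG and the CCAAT box, each read on both strands. These 4 genes were chosen after their values were seen.
Usp12, chr5:146794957-146795206, minus strand: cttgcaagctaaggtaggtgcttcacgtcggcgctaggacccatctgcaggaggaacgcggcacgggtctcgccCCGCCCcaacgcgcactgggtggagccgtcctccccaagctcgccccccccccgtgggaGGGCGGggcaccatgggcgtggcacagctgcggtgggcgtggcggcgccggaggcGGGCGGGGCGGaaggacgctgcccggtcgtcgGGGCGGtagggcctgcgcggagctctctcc
Usp46, chr5:74068412-74068661, minus strand: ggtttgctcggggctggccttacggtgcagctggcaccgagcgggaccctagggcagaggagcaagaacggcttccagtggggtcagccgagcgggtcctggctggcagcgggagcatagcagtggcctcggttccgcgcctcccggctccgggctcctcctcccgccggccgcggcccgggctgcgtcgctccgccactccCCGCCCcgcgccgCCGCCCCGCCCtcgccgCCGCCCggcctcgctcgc
Usp28, chr9:48985135-48985384, plus strand: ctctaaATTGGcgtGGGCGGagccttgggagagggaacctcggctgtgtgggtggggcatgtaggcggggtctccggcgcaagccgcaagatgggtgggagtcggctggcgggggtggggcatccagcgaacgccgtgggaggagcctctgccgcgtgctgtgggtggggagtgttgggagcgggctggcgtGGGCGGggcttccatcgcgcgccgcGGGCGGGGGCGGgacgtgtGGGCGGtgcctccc
Ube2c, chr2:164769679-164769928, plus strand: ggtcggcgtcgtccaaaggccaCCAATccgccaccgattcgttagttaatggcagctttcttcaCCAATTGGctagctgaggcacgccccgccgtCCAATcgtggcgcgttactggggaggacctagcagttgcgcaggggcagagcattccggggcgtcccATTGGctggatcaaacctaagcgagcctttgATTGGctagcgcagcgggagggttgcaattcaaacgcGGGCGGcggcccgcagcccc
Usp12 and Usp46, whose transcripts moved apart at the 4-cell stage, both had flanks rich in G and C (74.8% and 77.6%), with 5 and 4 GC boxes and no CCAAT box. The Usp28 flank held 5 GC boxes and 1 CCAAT box at 73.2% G and C. The Ube2c flank differed from these by 6 CCAAT boxes, on both strands and with 1 pair sharing bases, and a single GC box at 62.4% G and C. Across members a GC box on either strand was found in 67.6% of Usp windows (25 of 37) and 68.4% of Ube2 windows (26 of 38). Over all 32851 RefSeq windows the share was 32.7%. Those windows belong to 27025 genes, expressed in these samples or not, and no set limited to expressed genes was compared. CCAAT was found in 21.6% (8) and 18.4% (7) against 33.8%, and TATAAA on either strand in 5.41% (2) and 7.89% (3) against 12.4%. The median share of G and C was 65.2% for Usp and 68.8% for Ube2 windows, against 52.4% over all RefSeq windows.

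The 2 families took different courses as summed RNA. All Usp transcripts together made up 3307 ± 113 CPM in GV oocytes and 5406 ± 581 CPM in MII oocytes, stayed between 4162 and 4651 CPM from the zygote to the 8-cell stage, and ended at 2921 ± 304 CPM in the blastocyst. The Ube2 sum was 6428 ± 95.5 CPM in GV oocytes, was highest at the 2-cell stage with 9911 ± 184 CPM and was 5319 ± 240 CPM at the 4-cell stage. That step in the Ube2 sum followed 1 gene: Ube2d3, a broad E2 that works with many ligases, made up 52.2% of the Ube2 sum at the 2-cell stage and 10.5% at the 4-cell stage. Without it the remaining Ube2 transcripts summed to 4742 CPM at the 2-cell and 4761 CPM at the 4-cell stage. These sums are descriptions and carry no test.

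The stage of highest mean lay between the GV and the 2-cell stage for 30 of 48 Usp genes (62.5%) and for 15 of the 33 Ube2 genes tested (45.5%), against 47.4% of all genes, and the difference between the families was not tested. The 2-cell stage held the highest mean of 12 Usp genes and MII of 11, while 7 peaked in the blastocyst. Per kilobase of transcript, the scale on which genes can be set side by side, Ube2d3 was the most abundant E2 from the GV to the 2-cell stage (1002 to 2069 CPM per kb) and Ube2c, an E2 of the APC/C, from the 4-cell stage to the blastocyst (466.9 to 891 CPM per kb). Among Usp genes Usp16, a histone H2A deubiquitinase, led from the zygote to the 8-cell stage with 133 to 229 CPM per kb. Usp1, which acts on PCNA and FANCD2, led narrowly in the morula (126 CPM per kb) and blastocyst (79.6 CPM per kb). Close behind were Usp14 in the morula (118 CPM per kb) and Usp7 in the blastocyst (78.35 CPM per kb). The leading Usp gene was below the leading E2 gene at every stage on this scale. Ube2v1 was too low to be tested, with at most 0.882 CPM. Usp30 had the same values as the gene model Gm16108 in every library, and 44 of the 82 members overlap another annotated gene (20 on the same and 37 on the opposite strand), so that without a stated strand setting some of their reads may belong to the neighbour. Members of the Ube2d family are near copies of each other, and how the counting split their reads is not given in the sources used here.

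**Figure D1:**
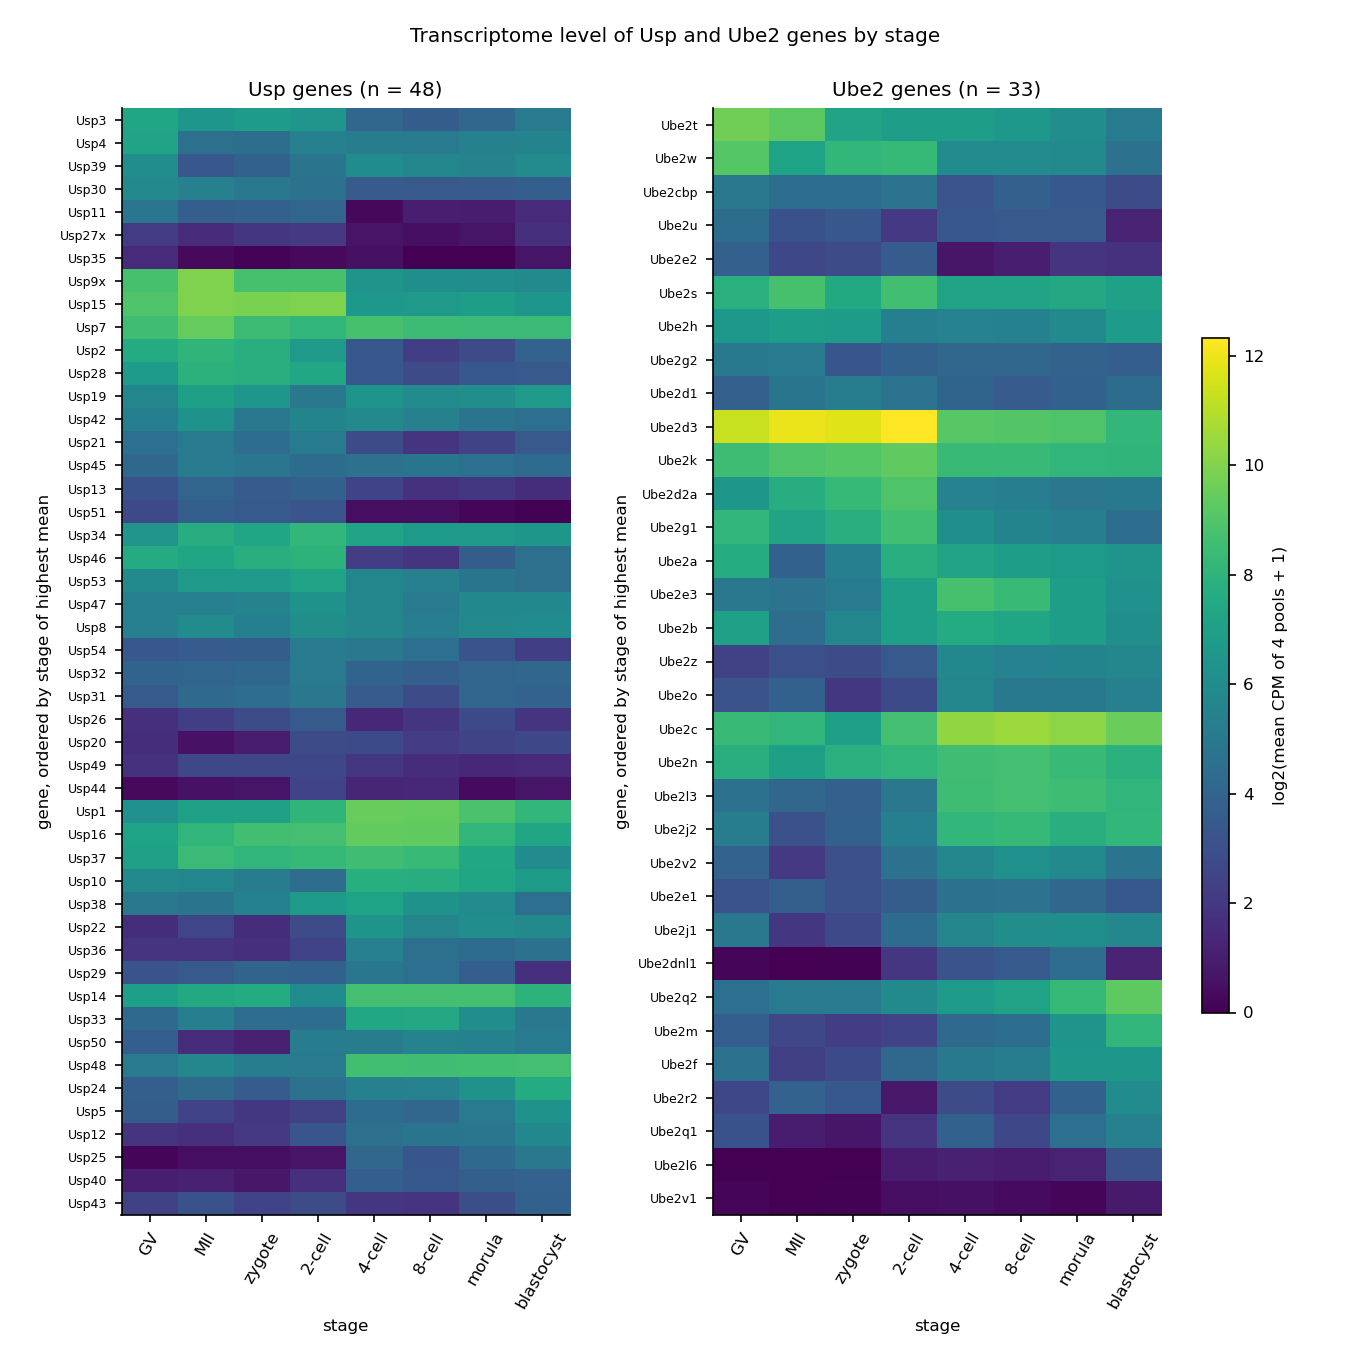
Level of the 48 Usp genes (left) and 33 of the 34 Ube2 genes (right) as rows, ordered by the stage of their highest mean, at each of the 8 stages (columns). Colour is log2 of the mean CPM of 4 transcriptome pools + 1, and Ube2d3 has the highest level of any member up to the 2-cell stage, after which its colour darkens.

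Counted over the 7 steps between neighbouring stages, members changed most often at the step from the 2-cell to the 4-cell stage. Between GV and MII, 8 Usp genes rose and 6 fell, while 3 Ube2 genes rose and 11 fell, against backgrounds of 9.11% of all 14642 genes called higher and 25.3% called lower. That is 16.7% and 12.5% of Usp genes and 9.09% and 33.3% of Ube2 genes, and the median change was 0.48 for Usp, -0.25 for Ube2 and -0.11 over all genes. From MII to the zygote no Usp gene rose and 2 fell, while 4 Ube2 genes rose and 5 fell, against 5.79% and 4.48% of all genes. From the zygote to the 2-cell stage 9 Usp and 12 Ube2 genes rose and 3 of each family fell, against 25.2% and 8.71%. From the 2-cell to the 4-cell stage 14 Usp genes rose and 17 fell, and 13 Ube2 genes rose and 8 fell, against 31.8% and 32.9%. The median change at this step was -0.11 for Usp, 0.65 for Ube2 and 0.02 over all genes. From the 4-cell to the 8-cell stage no member rose and 1 of each family fell, against 0.451% and 2.14%, while 26 members had an unadjusted p under 0.05 and edgeR called 4. From the 8-cell stage to the morula 5 Usp genes rose and 4 fell, and 5 Ube2 genes rose and 1 fell, against 8.18% and 3.70%. From the morula to the blastocyst 4 Usp genes rose and 4 fell, and 3 Ube2 genes rose and 5 fell, against 18.8% and 7.97%.

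**Figure D2:**
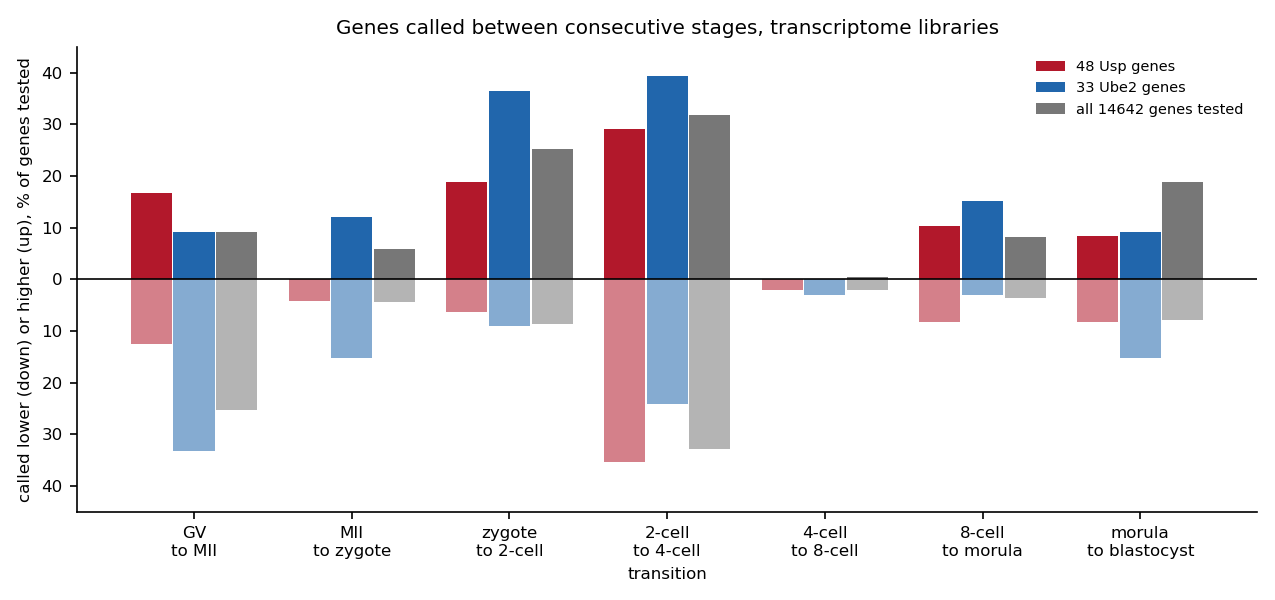
Percent of 48 Usp genes, 33 Ube2 genes and all 14642 genes tested that were called higher (up) or lower (down, paler) at each of the 7 steps between stages, by limma on log2(CPM + 1). At the step from the 2-cell to the 4-cell stage 29.2% of Usp genes were called higher and 35.4% lower, and the step from the 4-cell to the 8-cell stage is almost empty.

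Shares of members called were near the background at several steps, such as the 29.2% of Usp genes that rose and 35.4% that fell between the 2-cell and 4-cell stage. Never called at any step, which does not mean that their level was constant, were 5 Usp genes (Usp7, Usp8, Usp45, Usp47 and Usp49). Ube2e1 and Ube2n were among the Ube2 genes never called. Genes never called made up 10.4% of Usp and 9.09% of Ube2 genes. Both shares were near that of all genes, of which 1610 of 14642 were never called. Ube2n, the E2 enzyme for lysine-63 chains, had stage means between 128 and 399.9 CPM. Called at 3 or more steps were 6 Usp genes (12.5%) and 15 Ube2 genes (45.5%), against 27.1% of all genes. The quantile scaling moved the median of all genes from -0.11 to 0.16 between GV and MII, from 0.37 to -0.08 between zygote and 2-cell and from 0.02 to 0.22 between 2-cell and 4-cell, so changes at these steps are relative to the scaling. Over all genes it turned 1334 higher and 3711 lower calls between GV and MII into 3234 and 2578, and 3684 and 1275 between zygote and 2-cell into 2189 and 2529. At the last 3 steps it turned 66 and 314 into 134 and 135, 1198 and 542 into 805 and 742, and 2750 and 1167 into 1785 and 1731.

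The E2 enzymes of the APC/C were both called lower from MII to the zygote and both higher from there to the 2-cell stage. Their calls went in opposite directions only at the 4-cell stage, where that of Ube2s rested on 1 pool. Ube2c, which starts chains on APC/C substrates, was measured at 308, 342, 319.8 and 293 CPM in the GV pools, 259, 272, 332 and 249 CPM in MII and 127, 135, 130.1 and 109.7 CPM in zygotes. It stood at 418, 312, 449.8 and 398 CPM at the 2-cell stage and 1029, 1119, 1321 and 1508 CPM at the 4-cell stage, with no overlap between these groups. From MII to the zygote it fell (log2 change -1.13, SE 0.14, adjusted p = 5.70e-08), and it rose to the 2-cell stage (log2 change 1.63, SE 0.14, adjusted p = 1.59e-12) and again to the 4-cell stage (log2 change 1.65, SE 0.14, adjusted p = 3.05e-13). Its level stayed near that of the 4-cell pools in 8-cell embryos (1407 ± 139 CPM) and morulae (1154 ± 92.6 CPM) and was 737 ± 161 CPM in blastocysts. Ube2s, which extends the chains with lysine-11 linkages, was measured at 234, 217, 239.9 and 226 CPM in GV, 499, 307, 511 and 386 CPM in MII and 207, 249, 110.5 and 142 CPM in zygotes. At the 2-cell stage its pools held 712, 252, 243 and 337 CPM, the first far above the rest, and at the 4-cell stage 166, 165, 112 and 139.9 CPM. It fell from MII to the zygote (log2 change -1.30, SE 0.24, adjusted p = 8.06e-05), and its rise to the 2-cell stage (log2 change 1.04) and fall to the 4-cell stage (log2 change -1.27) were both lost without the 2-cell pool E (changes 0.70 and -0.93). The rise was also lost without the zygote pools C (0.84) and D (0.96).

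Of the 16 subunits and activators of the APC/C itself, 9 rose and 1 fell at the same step from the 2-cell to the 4-cell stage, against 31.8% and 32.9% of all genes, with a median change of 1.20 against 0.02. Cdc20, its activator in mitosis, was at 70.3 ± 16.5 CPM at the 2-cell and 382 ± 67.8 CPM at the 4-cell stage (log2 change 2.44, adjusted p = 3.03e-14). Fzr1, the activator used later in the cell cycle, was the one that fell (log2 change -1.11, adjusted p = 0.00061). Between GV and MII 3 of the 16 had risen and 6 had fallen, against 9.11% and 25.3% of all genes.

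Of the 8 broad E2 genes tested, 2 rose and 4 fell between the 2-cell and the 4-cell stage, against 31.8% and 32.9% of all genes. Ube2d3 was measured at 2464, 2484, 2544 and 2518 CPM in GV oocytes, 2821, 3906, 4967 and 4165 CPM in MII, 3140.0, 3381, 3470.0 and 3633 CPM in zygotes and 5168, 5113, 5290.0 and 5102 CPM at the 2-cell stage. At the 4-cell stage it was at 516, 526, 588 and 603 CPM, and every later pool lay between 261 and 588 CPM. It fell from the 2-cell to the 4-cell stage (log2 change -3.21, SE 0.12, adjusted p = 1.77e-23). Its close relative Ube2d2a had 4 GV pools at 95.7, 89.4, 99.9 and 79.7 CPM, MII pools at 173, 187, 234 and 229.7 CPM, zygotes at 300.2, 288, 311 and 344 CPM and 2-cell pools at 428, 448, 472 and 586 CPM. In 4-cell embryos it was at 47.5, 37.2, 51.5 and 39.1 CPM, below every earlier pool. It rose between GV and MII (log2 change 1.16, SE 0.16, adjusted p = 1.40e-07) and fell at the 4-cell stage (log2 change -3.44, SE 0.16, adjusted p = 3.19e-20). Ube2d1, another relative, stayed between 10.6 and 34.7 CPM. Ube2w, which attaches ubiquitin to protein amino ends, was at 539 ± 28.9 CPM in GV oocytes, 141 ± 28.0 CPM in MII, 303 ± 70.8 CPM at the 2-cell and 61.1 ± 17.2 CPM at the 4-cell stage. Its rise from MII to the zygote (log2 change 1.04) was lost without pools A (0.96) and without pools C (0.89).

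In the other direction went Ube2l3, an E2 used by the ligase parkin and by HECT-type ligases. Its pools held 24.1, 25.5, 28.7 and 18.5 CPM in GV, 16.8, 16.6, 16.2 and 14.2 CPM in MII, 11.4, 13.6, 10.5 and 15.9 CPM in zygotes and 28.6, 27.4, 29.6 and 30.5 CPM at the 2-cell stage. At the 4-cell stage they held 366, 324, 359 and 376 CPM, and no later pool was under 252 CPM, so early and late pools did not overlap. It rose at this step (log2 change 3.57, SE 0.14, adjusted p = 5.26e-23). Ube2e3 rose at 2 steps, from 32.5 ± 1.99 CPM in zygotes to 124 ± 14.2 CPM at the 2-cell stage (log2 change 1.89, SE 0.15, adjusted p = 5.00e-13) and to 430.0 ± 117 CPM at the 4-cell stage, and fell from the 8-cell stage to the morula (log2 change -1.43, SE 0.15, adjusted p = 1.15e-08). Ube2dnl1, named for its likeness to the Ube2d genes, was nearly absent in oocytes, with 0.132, 0, 0.303 and 0.149 CPM in GV and 0 in all 4 MII pools. It reached 1.73, 1.38, 5.67 and 2.73 CPM at the 2-cell and 10.2, 6.93, 9.65 and 6.18 CPM at the 4-cell stage and 18.5, 31.1, 19.1 and 13.6 CPM in morulae. In blastocysts it was back at 1.03, 1.79, 1.38 and 1.10 CPM, a fall from the morula (log2 change -3.17, SE 0.25, adjusted p = 9.55e-13). Its zygote pools had at most 3 reads, so no fold is given for its rise to the 2-cell stage, which passed the test.

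The Rad6 enzymes Ube2a and Ube2b, which ubiquitinate histone H2B and PCNA, fell during maturation and rose at both following steps. Ube2a was measured at 193, 201, 194 and 202 CPM in GV oocytes and 13.9, 15.9, 9.66 and 12.6 CPM in MII, the largest fall of any member at this step (log2 change -3.84, SE 0.22, adjusted p = 2.12e-17). Zygotes held 34.0, 38.2, 50.3 and 34.4 CPM and 2-cell embryos 206, 217, 228 and 225 CPM, so that 2-cell pools again lay above the GV pools. Both rises passed the test (MII to zygote log2 change 1.52, zygote to 2-cell log2 change 2.47). Later pools ran down to 50.2 CPM in the blastocyst with no further call. Ube2b went the same way, from 132 ± 5.44 CPM in GV through 20.2 ± 3.70 CPM in MII (log2 change -2.66, SE 0.15, adjusted p = 1.82e-17) and 49.8 ± 7.37 CPM in zygotes (log2 change 1.27) to 122 ± 15.1 CPM at the 2-cell stage.

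Of the 4 E2 genes of endoplasmic reticulum degradation 2 fell between GV and MII, and so did 2 of the 4 for ubiquitin-like modifiers. Of all genes 25.3% were called lower at this step. Ube2j1, an E2 of endoplasmic reticulum degradation, was at 29.6 ± 1.71 CPM in GV and 2.84 ± 1.13 CPM in MII (log2 change -3.04, SE 0.25, adjusted p = 7.70e-13), and its relative Ube2j2 at 35.8 ± 4.78 and 7.33 ± 1.96 CPM (log2 change -2.16). Both rose at the 2-cell and again at the 4-cell stage, where Ube2j2 reached 287 ± 71.4 CPM. Ube2f, an E2 for NEDD8, fell from 23.98 ± 1.83 to 4.03 ± 0.41 CPM (log2 change -2.31, SE 0.25, adjusted p = 7.57e-10). Ube2v2, the partner of Ube2n in lysine-63 chains, fell from 13.9 ± 1.24 to 3.09 ± 1.21 CPM (log2 change -1.91), and its rise to 7.18 ± 1.79 CPM in zygotes (log2 change 1.0) was lost without pools C (0.85) and without pools D (0.97). Ube2r2, which with Cdc34 serves the cullin ligases, went against this pattern: it rose between GV and MII (log2 change 1.19, SE 0.29, adjusted p = 6.57e-04), fell from 9.63 ± 0.7 CPM in zygotes to 0.791 ± 0.74 CPM at the 2-cell stage (log2 change -2.66, SE 0.29, adjusted p = 8.27e-10), and rose in the morula (log2 change 1.65) and the blastocyst (log2 change 2.23), where it stood at 61.6 ± 2.49 CPM.

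From MII to the zygote 5 E2 genes fell (15.2% of Ube2 genes) and 4 rose (12.1%), against 4.48% and 5.79% of all genes. Ube2t, the E2 of the Fanconi anaemia pathway, was at 804 ± 31.98 CPM in GV oocytes, 596 ± 64.3 CPM in MII and 148 ± 6.67 CPM in zygotes (log2 change -2.0, SE 0.14, adjusted p = 4.32e-13). Ube2o, a large enzyme that joins E2 and ligase activity, fell from 13.1 ± 4.51 to 3.04 ± 0.97 CPM (log2 change -1.79, SE 0.25, adjusted p = 8.50e-07), and Ube2g2, an E2 of endoplasmic reticulum degradation, from 31.9 ± 12.7 to 9.02 ± 2.11 CPM (log2 change -1.66, SE 0.30, adjusted p = 6.35e-05). Among Usp genes Usp42 fell (log2 change -1.33) and so did the X-linked Usp9x, from 1003 ± 152 to 433 ± 57.9 CPM (log2 change -1.21, SE 0.17, adjusted p = 1.46e-06).

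Of the 4 E2 genes of ubiquitin-like modifiers, 2 rose from the 8-cell stage to the morula and 2 from the morula to the blastocyst. Of all genes 8.18% and 18.8% were called higher at these steps. Ube2m, the E2 that loads NEDD8 onto cullins, was at 20.9 ± 9.49 CPM at the 8-cell stage, 82.8 ± 34.5 CPM in morulae (log2 change 1.94, SE 0.33, adjusted p = 3.15e-05) and 273 ± 73.9 CPM in blastocysts (log2 change 1.77, SE 0.33, adjusted p = 3.64e-05). Ube2f rose in the morula (log2 change 1.38) and Ube2l6, the E2 for ISG15, in the blastocyst, at 7.30 ± 3.19 CPM against 1.26 ± 1.20 CPM (log2 change 1.90, SE 0.30, adjusted p = 2.17e-06). Ube2q1 fell from 13.1 ± 4.81 to 5.34 ± 2.47 CPM (log2 change -1.19, SE 0.27, adjusted p = 0.00505), a call lost without pools C (-0.92), and rose in the morula (log2 change 1.88). Cdc34, the other cullin E2 and no member by symbol, had 307 ± 120 CPM in morulae and 1123 ± 188 CPM in blastocysts and rose at that step. Ube2u (log2 change -2.20) and Ube2w (log2 change -1.28) fell there.

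Of the 8 Usp genes that act on histones, 5 fell and 1 rose between the 2-cell and the 4-cell stage, against 32.9% and 31.8% of all genes, with a median change of -1.33 against 0.02. Usp22, the deubiquitinase of the SAGA coactivator, was the one that rose. Its pools held 2.30, 1.53, 2.5 and 2.09 CPM in GV, 6.75, 6.47, 2.77 and 3.54 CPM in MII, 2.32, 1.90, 1.93 and 2.22 CPM in zygotes and 8.66, 1.61, 6.77 and 6.996 CPM at the 2-cell stage. At the 4-cell stage they held 88.4, 69.3, 104 and 63.5 CPM, and later pools lay between 44.3 and 79.9 CPM (log2 change 3.68, SE 0.27, adjusted p = 7.48e-15). Its rise from the zygote to the 2-cell stage (log2 change 1.03) was lost without the 2-cell pools E (0.82), G (0.93) or H (0.91) and without pools B (0.998).

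Usp51 and Usp27x can take the place of Usp22 with the same partner proteins, and both went the other way. Usp51 was at 5.65, 6.76, 5.68 and 4.26 CPM in GV, 11.9, 13.0, 10.8 and 13.1 CPM in MII, 11.2, 9.01, 11.1 and 10.2 CPM in zygotes and 9.82, 7.05, 9.39 and 7.44 CPM at the 2-cell stage, and at 0, 0, 0.75 and 0.759 CPM at the 4-cell stage (log2 change -2.82, SE 0.23, adjusted p = 2.38e-13). No later pool had more than 1.44 CPM. Its rise between GV and MII (log2 change 1.01) was lost without pools D (0.88). Usp27x was low throughout, with 3.91, 2.83, 1.78 and 3.90 CPM at the 2-cell and 0.929, 1.10, 0.214 and 0 CPM at the 4-cell stage (log2 change -1.43, SE 0.33, adjusted p = 1.95e-04), and the blastocyst pools spread from 0.672 to 3.38 CPM. Its GV pools held 3.15, 2.91, 5.91 and 2.39 CPM and its zygotes 2.86, 3.56, 2.22 and 2.67 CPM. Of the shared partners, Atxn7l3 rose from 1.66 ± 0.974 CPM at the 2-cell to 13.0 ± 4.15 CPM at the 4-cell stage, and Eny2 fell from 659.9 ± 80.8 to 116 ± 20.1 CPM.

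Usp16, which removes ubiquitin from histone H2A, was highest at the 4-cell and 8-cell stages and lower afterwards. Its pools held 146, 139, 141 and 134 CPM in GV and 294, 277, 262 and 293 CPM in MII, a rise (log2 change 1.00, SE 0.11, adjusted p = 9.61e-10) lost without pools D (0.96). Zygotes held 398, 385, 376 and 379 CPM, 2-cell embryos 356, 398, 441 and 402 CPM, 4-cell embryos 749, 643, 576 and 673 CPM and 8-cell embryos 599, 677, 634 and 668 CPM. It fell to 267, 282, 303 and 268 CPM in morulae (log2 change -1.20, SE 0.11, adjusted p = 7.45e-10), and blastocyst pools held 149, 132, 129 and 195 CPM. Usp3, another H2A deubiquitinase, was highest in GV oocytes at 159, 152, 139 and 148 CPM. Its pools held 98.8, 93.8, 67.8 and 87.4 CPM in MII, 100.5, 125, 112 and 92.8 CPM in zygotes and 89.2, 81.9, 71.8 and 94.3 CPM at the 2-cell stage, above the 4-cell pools of 8.77, 13.8, 6.91 and 32.9 CPM (log2 change -2.60, SE 0.30, adjusted p = 7.18e-10). Usp21, which also acts on H2A, was at 42.0, 27.6, 33.2 and 27.4 CPM at the 2-cell and 5.98, 5.01, 2.79 and 11.8 CPM at the 4-cell stage (log2 change -2.30, SE 0.26, adjusted p = 3.61e-10), with MII pools at 46.5, 25.6, 36.0 and 29.6 CPM.

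Usp44 and Usp49, linked to ubiquitin on histone H2B, were low at every stage. Usp44 had at most 1.11 CPM in any pool from GV to zygote, then 5.45, 5.90, 5.16 and 1.84 CPM at the 2-cell stage (log2 change 1.74, SE 0.31, adjusted p = 1.14e-05) and 0.774, 0.137, 1.98 and 3.29 CPM at the 4-cell stage. That later fall (log2 change -1.23) was lost without pools B (-0.90). Usp49 was called at no step. Its pools held 3.75, 2.18, 1.97 and 1.79 CPM in GV, 7.49, 6.86, 1.74 and 5.18 CPM in MII, 5.07, 3.45, 5.5 and 7.51 CPM at the 2-cell and 3.25, 2.67, 2.95 and 2.48 CPM at the 4-cell stage.

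Among Usp genes bound by the cofactor Wdr48, Usp46 had the largest fall of any member. Its pools held 212, 186, 177 and 179.8 CPM in GV, 133, 170.5, 121 and 174 CPM in MII, 198, 212, 273 and 194 CPM in zygotes and 233, 235, 229.9 and 294 CPM at the 2-cell stage. At the 4-cell stage they held 4.44, 4.05, 4.29 and 2.43 CPM, far below every earlier pool (log2 change -5.71, SE 0.24, adjusted p = 1.93e-21). It rose again from 2.49, 3.52, 4.31 and 0.635 CPM at the 8-cell stage to 11.5, 7.97, 12.7 and 14.3 CPM in morulae (log2 change 1.86, SE 0.24, adjusted p = 5.03e-07), and blastocysts held 18.8, 25.0, 15.6 and 32.03 CPM. Its close relative Usp12, whose flank is shown above with that of Usp46, took the opposite course, with 8.60, 8.58, 8.88 and 9.94 CPM at the 2-cell, 19.2, 23.9, 22.4 and 24.6 CPM at the 4-cell stage (log2 change 1.23, SE 0.23, adjusted p = 7.98e-06) and 52.4 ± 13.8 CPM in blastocysts. Antisense gene models (Usp46os1 and Usp46os2) overlap Usp46, so part of its reads may be theirs. Usp1 rose from 266 ± 54.9 to 717 ± 195 CPM (log2 change 1.41, SE 0.19, adjusted p = 2.20e-08). Wdr48 itself was at 47.7 ± 9.60 and 53.7 ± 5.13 CPM at these stages, while Wdr20, another cofactor of Usp12 and Usp46, fell from 278.5 ± 14.0 to 8.96 ± 2.32 CPM (log2 change -4.84, adjusted p = 1.91e-21).

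**Figure D3:**
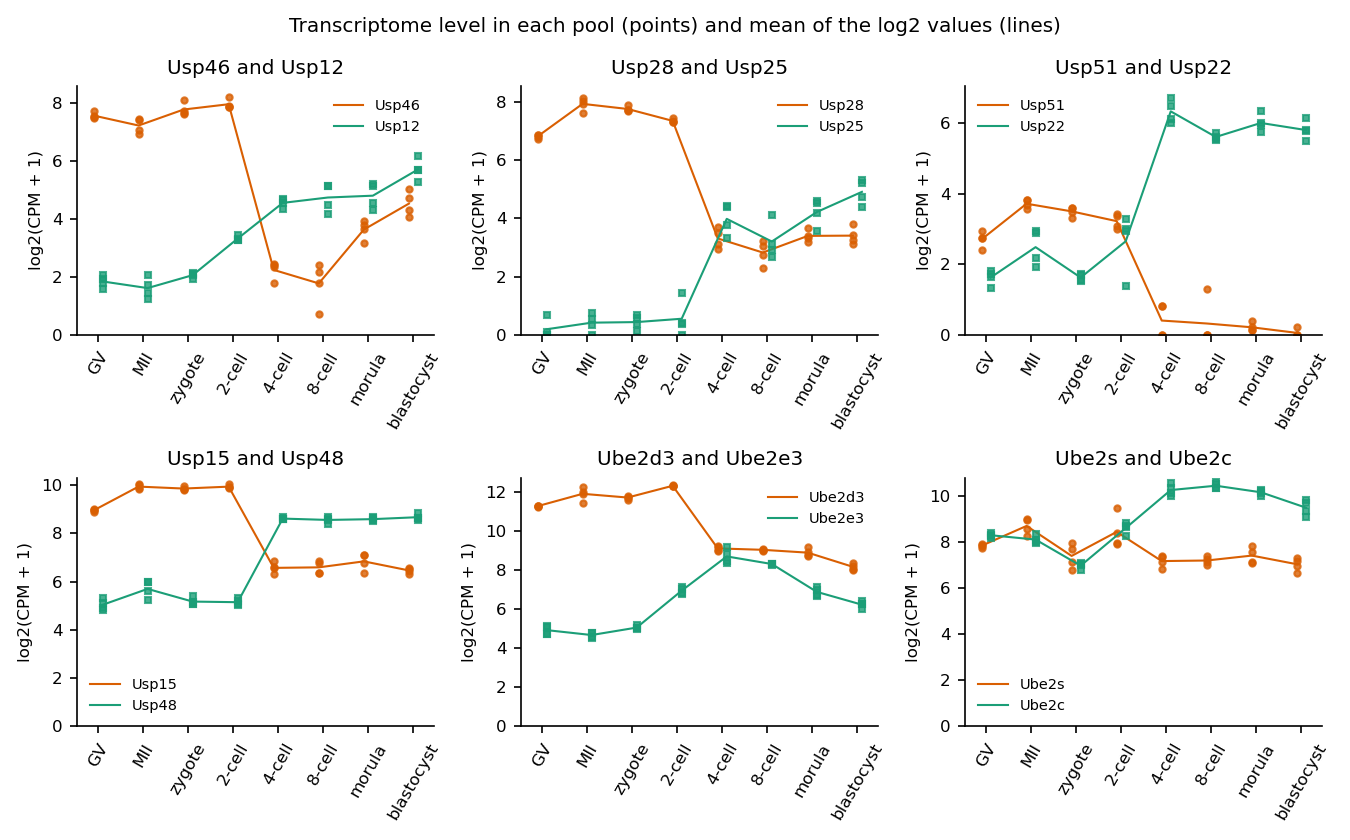
Level of 6 pairs of members, as log2(CPM + 1), in each transcriptome pool at each of the 8 stages, with 4 points per stage and a line through the means of the log2 values. Usp46 falls from 248 CPM at the 2-cell to 3.80 CPM at the 4-cell stage while its relative Usp12 rises from 9.0 to 22.5 CPM.

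Of 5 Usp genes tied to DNA damage and p53, 1 rose and 2 fell between the 2-cell and the 4-cell stage. Of all genes 31.8% were called higher and 32.9% lower there. Usp28, which steadies the oncoprotein Myc and acts with the damage protein 53BP1, was measured at 114, 117, 104 and 111 CPM in GV, 282, 261, 196 and 246 CPM in MII, 210.0, 211, 208 and 236 CPM in zygotes and 157, 162, 157 and 174 CPM at the 2-cell stage. The 4-cell pools held 12.0, 6.65, 7.66 and 10.3 CPM (log2 change -4.04, SE 0.18, adjusted p = 5.14e-21), and no later pool exceeded 13.0 CPM. Its close relative Usp25 had at most 1.69 CPM in any pool up to the 2-cell stage and 9.08, 20.4, 12.8 and 20.2 CPM at the 4-cell stage (log2 change 3.43, SE 0.31, adjusted p = 2.30e-12). Usp11 was at 26.5, 26.7, 27.9 and 28.6 CPM in GV, 14.4, 8.81, 11.8 and 13.8 CPM in MII, 13.2, 13.4, 11.3 and 12.4 CPM in zygotes and 20.47, 14.7, 9.39 and 15.5 CPM at the 2-cell stage, and at 0, 0, 0.75 and 0 CPM at the 4-cell stage (log2 change -3.75, SE 0.27, adjusted p = 5.79e-15). Usp10, which acts on p53, rose from 20.2 ± 4.06 to 218 ± 71.1 CPM (log2 change 3.33, SE 0.17, adjusted p = 6.31e-19), and Usp7, the deubiquitinase of Mdm2 and p53, was never called, at 274 ± 19.3 and 434 ± 45.8 CPM.

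Of the 3 Usp genes grouped with splicing, 2 fell between GV and MII, against 25.3% of all genes. At the 4-cell stage 1 rose and 1 fell, against 31.8% and 32.9%. Usp39, a spliceosome protein without protease activity, was at 66.8 ± 6.11 CPM in GV and 9.05 ± 2.16 CPM in MII (log2 change -2.77, SE 0.20, adjusted p = 9.32e-15), and was back at 63.5 ± 10.2 CPM at the 4-cell stage. Usp4 fell from 147 ± 4.00 to 22.1 ± 6.21 CPM (log2 change -2.72, SE 0.18, adjusted p = 1.88e-15) and stayed at or under 46.0 CPM on average at every later stage. Its relative Usp15 was abundant up to the 2-cell stage (976 ± 49.4 CPM) and fell at the 4-cell stage to 94.6 ± 14.7 CPM (log2 change -3.37, SE 0.14, adjusted p = 4.44e-22).

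Of 7 Usp genes of membranes and endosomes, 3 rose between GV and MII, against 9.11% of all genes. At the 4-cell stage 2 rose and 3 fell, against 31.8% and 32.9%. Usp9x rose from 423 ± 23.6 CPM in GV to 1003 ± 152 CPM in MII (log2 change 1.23, SE 0.17, adjusted p = 1.75e-07) before it fell in the zygote. Usp19, anchored in the endoplasmic reticulum, rose at the same step (log2 change 1.33, SE 0.19, adjusted p = 1.83e-07), fell at the 2-cell stage (log2 change -1.53) and was at 81.2 ± 17.1 CPM at the 4-cell stage. Usp2 was at 264 ± 30.2 CPM in MII and 100.4 ± 34.1 CPM at the 2-cell stage, a fall from the zygote (log2 change -1.09) lost without the 2-cell pool G (-0.98). It fell further to 9.13 ± 5.80 CPM at the 4-cell stage (log2 change -3.42, SE 0.28, adjusted p = 2.88e-13). Its calls at later stages depended on the pools used: the one at the 8-cell stage (log2 change -1.0) was lost without pools A (-0.79), C (-1.09) or D (-0.79), and the one in the blastocyst (log2 change 1.04) without pools C (0.74). Usp33 rose from 20.6 ± 7.88 CPM at the 2-cell to 160.1 ± 29.5 CPM at the 4-cell stage (log2 change 2.96, SE 0.23, adjusted p = 4.79e-14) and fell from the 8-cell stage to the morula (log2 change -1.33). Its relative Usp20 rose a step earlier, from 0.916 ± 0.56 CPM in zygotes to 6.07 ± 1.87 CPM (log2 change 1.90, SE 0.27, adjusted p = 2.75e-07).

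Usp50 was at 12.2, 11.8, 10.8 and 13.3 CPM in GV, 2.54, 2.68, 1.36 and 1.22 CPM in MII and 1.68, 1.33, 1.34 and 0.5 CPM in zygotes. It reached 29.0, 36.1, 43.4 and 34.5 CPM at the 2-cell stage, the largest rise at that step (log2 change 4.07, SE 0.26, adjusted p = 8.98e-16), and stayed high through the 4-cell (28.8, 46.5, 31.2 and 34.5 CPM), 8-cell (36.4, 46.1, 41.2 and 52.6 CPM) and morula stages (43.0, 27.4, 42.5 and 57.2 CPM). Blastocyst pools spread over 19.3, 19.4, 35.3 and 57.6 CPM. It lies against Usp8 on the other strand, and Usp8 was at 39.6 ± 6.01 and 66.5 ± 6.86 CPM at the step where Usp50 rose. Usp48 rose from 34.5 ± 3.41 CPM at the 2-cell to 389 ± 15.5 CPM at the 4-cell stage (log2 change 3.46, SE 0.14, adjusted p = 2.49e-22). Usp37, which acts on cyclin A, rose between GV and MII (log2 change 1.31, SE 0.13, adjusted p = 1.05e-10) and fell in the morula (log2 change -1.03, lost without pools A at -0.86) and the blastocyst (log2 change -1.35). Usp34, known from Wnt signalling, rose from 84.7 ± 11.1 CPM in GV to 207 ± 40.8 CPM in MII (log2 change 1.26, SE 0.15, adjusted p = 8.14e-09). Usp14 of the proteasome fell from 192 ± 26.6 CPM in zygotes to 62.8 ± 14.0 CPM at the 2-cell stage (log2 change -1.61, SE 0.14, adjusted p = 4.38e-12) and then rose to 398 ± 15.01 CPM at the 4-cell stage (log2 change 2.67).

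Late changes among Usp genes were smaller. Usp31 rose from the 8-cell stage to the morula (log2 change 1.22, SE 0.20, adjusted p = 1.80e-05) and Usp54 fell (log2 change -1.32, SE 0.19, adjusted p = 1.73e-06). In the blastocyst Usp5, which takes apart free ubiquitin chains, rose to 79.1 ± 15.5 CPM (log2 change 1.30, SE 0.30, adjusted p = 4.39e-04) and Usp24 to 193 ± 63.5 CPM (log2 change 1.23, SE 0.23, adjusted p = 2.66e-05). Usp29, an imprinted gene, fell from 11.8 ± 2.82 to 2.21 ± 0.98 CPM (log2 change -2.02, SE 0.24, adjusted p = 9.03e-09) and Usp38 fell (log2 change -1.44, SE 0.21, adjusted p = 4.39e-07). Ube2h had been the E2 with the next fall after Ube2r2 at the 2-cell stage (log2 change -1.47, SE 0.16, adjusted p = 5.59e-10), ahead of Ube2u (log2 change -1.35).

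Some close relatives parted at the 4-cell stage. Of 20 pairs of related members, set down from textbook knowledge after values had been seen, 5 had opposite calls between the 2-cell and the 4-cell stage, 2 had calls in the same direction and 13 had at most 1 call. At this step 31.8% of all genes were called higher and 32.9% lower, and 2 of the 5 pairs share Usp22. In opposite directions went Usp12 and Usp46, Usp25 and Usp28, Usp22 and Usp51, Usp22 and Usp27x, and Usp5 and Usp13. Ube2d2a and Ube2d3 both fell, and Ube2j1 and Ube2j2 both rose. Within each pool log2(CPM + 1) of Usp12 minus that of Usp46 ran from -4.75 to -4.55 at the 2-cell stage and from 1.89 to 2.90 at the 4-cell stage, so Usp46 was the higher in all 4 pools of the 2-cell stage and Usp12 in all 4 of the 4-cell stage. For Usp25 minus Usp28 the range was -7.45 to -5.87 and then -0.364 to 1.48. For Usp22 minus Usp51 it was -1.63 to -0.0776 and then 5.20 to 6.48. In the Usp5 and Usp13 pair Usp5 rose from 4.20 ± 1.68 to 19.4 ± 8.11 CPM and Usp13, its relative of free chains, fell from 13.1 ± 4.08 to 4.53 ± 1.08 CPM.

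The rest of the pathway was read at the step from the 2-cell to the 4-cell stage, at which 31.8% of all genes were called higher and 32.9% lower. Of the 10 ubiquitin and ubiquitin-like genes tested, 6 rose and 1 fell there, with a median change of 2.09. Ubb, a gene of tandem ubiquitin repeats, was the one that fell, from 3381 ± 866 to 741.5 ± 104 CPM (log2 change -2.17, adjusted p = 3.28e-16). Rps27a, which makes ubiquitin fused to a ribosomal protein, rose from 54.4 ± 9.55 to 1526 ± 77.6 CPM (log2 change 4.80, adjusted p = 3.62e-25), and Sumo2 from 64.2 ± 11.3 to 1185 ± 99.7 CPM (log2 change 4.20, adjusted p = 5.46e-27). Between GV and MII 5 of the 10 fell and none rose, against 25.3% and 9.11% of all genes. Ubb was at 8901 ± 797 CPM in GV and 1092 ± 198 CPM in MII. Of the 9 E1 genes tested 6 rose and 2 fell at the 4-cell stage, among them Sae1 of the SUMO pathway, from 8.57 ± 2.38 to 138 ± 21.6 CPM. Uba1, the main E1 for ubiquitin, was at 75.1 ± 21.9 and 139 ± 29.9 CPM and did not reach the size needed for a call (log2 change 0.90, adjusted p = 3.08e-05). Of the 31 deubiquitinases of other families tested, 6 rose and 14 fell, with a median change of -0.72, against -0.11 for Usp and 0.02 over all genes. Uchl1, the neuronal and oocyte ubiquitin hydrolase, fell from 632.8 ± 174 to 9.67 ± 5.00 CPM (log2 change -5.96, adjusted p = 1.92e-20), while Psmd14, the deubiquitinase in the proteasome lid, was at 27.3 ± 4.90 and 437 ± 78.6 CPM and rose. Of the 9 genes of the SCF ligase 3 rose and 4 fell, Skp1 among those that fell (1750.0 ± 158 to 599 ± 90.9 CPM).

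On the gradients the families were described by the mean fraction number of each gene, weighted by its CPM in the 10 fractions, and by the median of this centre over a family. A higher centre means that a gene takes a larger share of the poly(A) RNA of the higher-numbered fractions. CPM is scaled within each fraction, so the centre does not show where most of a transcript lies. The median Usp centre was 6.12 ± 0.47 in GV oocytes, 6.02 ± 0.17 in MII, 6.30 ± 0.16 in zygotes and 5.87 ± 0.13 at the 2-cell stage (SD, n = 3 gradients). It was 4.27 ± 1.18 at the 4-cell, 5.10 ± 0.66 at the 8-cell, 5.84 ± 0.47 at the morula and 4.94 ± 0.17 at the blastocyst stage. The Ube2 centres were 5.87, 5.51, 5.58, 5.49, 4.83, 5.76, 5.85 and 5.23 in the same order, and the centres over all genes 5.82, 5.57, 5.50, 5.13, 4.69, 5.56, 5.75 and 5.39. Usp genes lay above all genes in 3 of 3 gradients in MII, zygotes and 2-cell embryos (by 0.259 to 0.618, 0.706 to 0.961 and 0.702 to 0.773 fractions). They lay below all genes in 3 of 3 at the 4-cell, 8-cell and blastocyst stages (differences -0.974 to -0.016, -0.988 to -0.111 and -0.485 to -0.416). At the 4-cell stage gradient A gave the -0.974, and gradient B, at -0.016, hardly differed. These medians carry no test. Gradient A of the 4-cell stage stood apart, with a centre of 3.89 over all genes and 2.91 over Usp genes. In GV oocytes fraction 1 of gradients A and B held only 0.0102 and 0.0231 M reads and a median share of 0. Their Usp centres were 6.47 and 6.30. GV gradient C, with a median Usp share of 11.3% in fraction 1, had a Usp centre of 5.59, against 5.63 over all genes. Usp transcripts are longer than Ube2 transcripts (median 4.44 against 1.57 kb, and 2.76 against 0.549 kb of coding sequence). Over Usp genes the Spearman correlation of coding length with the heavy-to-light difference was 0.433 in GV, 0.453 in MII, 0.372 in zygotes, -0.044 at the 2-cell and -0.165 at the 4-cell stage, over 48 genes that share the same libraries. Over all genes with a length it was 0.155, 0.173, 0.162, -0.0645 and -0.153 in the same order. Over 34 Ube2 genes it was -0.133, -0.0277, -0.241, -0.388 and -0.288.

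**Figure D4:**
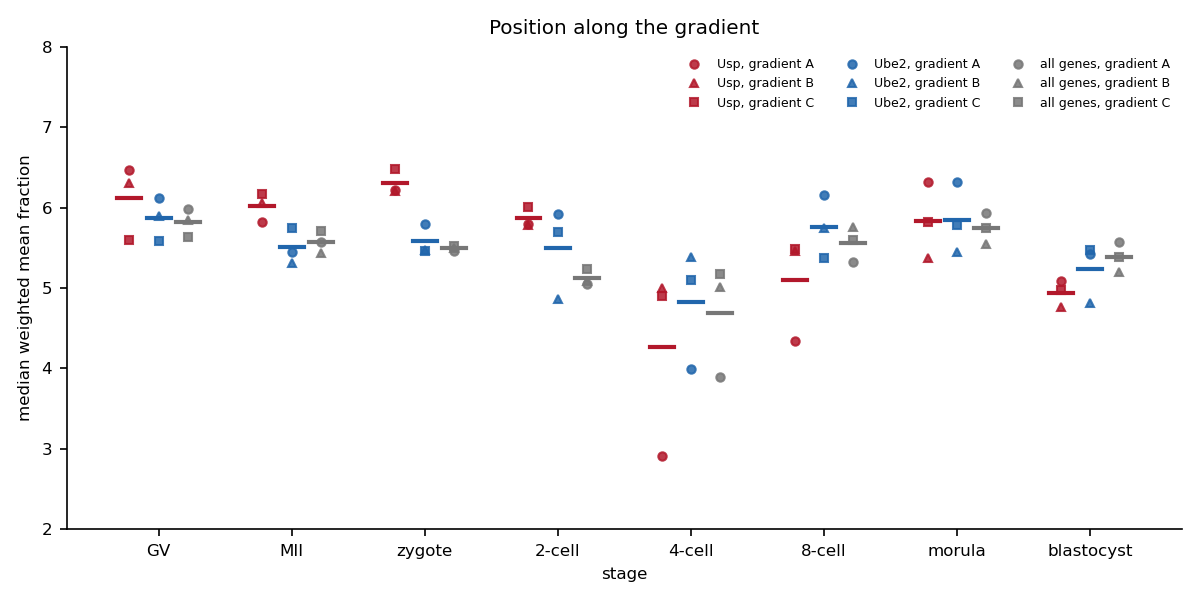
Median centre of Usp genes, Ube2 genes and all genes (weighted mean fraction number) in each of the 3 gradients of a stage, with a bar at the mean of the 3. Usp points lie above those of all genes in MII, zygotes and 2-cell embryos and below them at the 4-cell, 8-cell and blastocyst stages. In gradient B of the 4-cell stage the difference is only -0.016.

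For a test per gene, the mean CPM of fractions 6 to 10 (heavy) was set against that of fractions 1 to 5 (light) in the 3 gradients of a stage. Heavy fractions are where transcripts with more ribosomes sediment, but other large complexes reach them too. CPM is scaled within each fraction, so heavy and light compare shares of each fraction's poly(A) RNA and not amounts of a transcript. In GV oocytes no member was called heavy or light, against 0.0461% and 0.0264% of 15172 genes. There 6 Usp genes and no Ube2 gene had an unadjusted p under 0.05, and edgeR called none. In MII 2 Usp genes and 1 Ube2 gene were heavy and none light, against 1.71% and 1.52%. In zygotes 1 Usp gene was heavy, and 1 Ube2 gene heavy and 1 light, against 2.14% and 0.870%. At the 2-cell stage 9 Usp genes were heavy and 5 light, with 2 and 4 Ube2 genes, against 6.43% and 11.8%. At the 4-cell stage 2 Usp genes were heavy and 11 light, with no heavy and 6 light Ube2 genes, against 3.40% and 12.9%. At the 8-cell stage 2 and 3 Usp genes and 1 and 2 Ube2 genes were heavy and light, against 2.43% and 6.62%. In morulae 2 Usp genes and 1 Ube2 gene were light and none heavy, against 1.64% and 4.17%. In blastocysts 1 of each family was light and none heavy, against 0.633% and 2.11%. The median heavy-to-light difference of Usp genes was 0.49, 0.42, 0.65 and 0.23 from GV to the 2-cell stage, -1.06 at the 4-cell and -0.42 at the 8-cell stage, against 0.08, -0.06, -0.04, -0.16, -0.26 and 0.00 over all genes. When only the 3 gradients of a stage entered the fit, limma called no member at the 2-cell stage (19 with an unadjusted p under 0.05) or the 4-cell stage (10), and 18 in zygotes. The calls thus rest on a spread estimated over all stages. Quantile normalization moved the split of all genes to 1357 heavy and 1399 light at the 2-cell stage (975 and 1783 as deposited) and to 927 and 954 at the 4-cell stage (516 and 1952), so the excess of light calls at these stages depends on the scaling. In GV oocytes the split moved from 7 and 4 to 5 and 9.

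Before the 4-cell stage several abundant maternal members were heavy. Ube2d3 was at 727, 1037 and 743 CPM on the heavy side against 301, 257 and 215 on the light side in MII gradients A, B and C (log2 difference 1.69, SE 0.41, adjusted p = 0.0109). In zygotes it was at 1225, 859 and 1388 CPM on the heavy side against 269.9, 197 and 204 on the light side (log2 difference 2.35, SE 0.41, adjusted p = 3.50e-04). At the 2-cell stage it was at 2345, 1873 and 3874 CPM on the heavy side against 995, 683 and 1416 on the light side (log2 difference 1.38). The sides overlapped at none of these 3 stages. In MII Usp9x was at 149, 142 and 96.2 CPM on the heavy side against 29.0, 19.4 and 14.3 on the light side (log2 difference 2.60, SE 0.75, adjusted p = 0.043). Usp34 was at 25.8, 8.03 and 17.5 CPM on the heavy side against 3.08, 1.11 and 1.16 on the light side (log2 difference 2.64, SE 0.65, adjusted p = 0.012). In zygotes Usp15 was at 402, 255 and 328 CPM on the heavy side against 46.3, 29.4 and 28.7 on the light side (log2 difference 3.21, SE 0.88, adjusted p = 0.0318). Ube2c was the one member called light in zygotes, at 262, 324 and 181 CPM on the heavy side against 551, 529 and 567 on the light side (log2 difference -1.14, SE 0.29, adjusted p = 0.0191). With 3 gradients these calls were fragile. In MII the call of Ube2d3 was lost without gradient B (1.53) or C (1.64). Those of Usp9x (2.74 without A, 2.49 without B and 2.56 without C) and Usp34 (2.60 without A, 2.91 without B and 2.41 without C) were lost without any 1 gradient. The 2-cell call of Ube2d3 was lost without B (1.34) or C (1.35). In zygotes those of Ube2d3 (2.15 without C), Usp15 (3.28 without B and 3.08 without C) and Ube2c (-1.17 without A, -1.36 without B and -0.89 without C) were lost in the same way, with the differences staying in the same direction.

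At the 2-cell stage the heaviest calls fell on Usp45, Usp13, Usp33 and Usp38. Usp45, which acts in DNA repair, was at 19.2, 6.44 and 42.1 CPM on the heavy side against 0.504, 0 and 0 on the light side (log2 difference 4.02, SE 0.90, adjusted p = 0.00125). Usp13 (log2 difference 3.20), Usp33 (log2 difference 3.02) and Usp38 (log2 difference 2.93) followed. Of the Wdr48-bound genes Usp1 was heavy (log2 difference 2.03), and of the histone genes Usp3 was light (log2 difference -2.50), calls lost without 1 gradient for Usp1 (1.42 without B and 2.17 without C) and Usp3 (-0.82 without A and -2.97 without B). Usp46 was heavy too, at 402, 386 and 190.3 CPM on the heavy side against 65.1, 30.1 and 131 on the light side (log2 difference 2.26, SE 0.79, adjusted p = 0.0397). Usp36 of the nucleolus was light, at 1.96, 0.513 and 1.79 CPM on the heavy side against 37.8, 67.6 and 19.0 on the light side (log2 difference -4.02, SE 0.66, adjusted p = 2.69e-05). So was the X-linked Usp26, at 3.05, 0 and 0 CPM on the heavy side against 35.1, 47.97 and 7.34 on the light side (log2 difference -3.94, SE 0.65, adjusted p = 2.89e-05). The sides of both genes did not overlap. Light too were Usp48 (log2 difference -3.31) and Ube2k, an E2 of lysine-48 chains (log2 difference -3.06). Calls lost when 1 gradient was left out were those of Usp13 (3.30 without A and 1.57 without C), Usp33 (1.36 without A and 3.21 without B), Usp38 (1.55 without A and 3.11 without C), Usp48 (-3.15 without B and -3.16 without C) and Usp46 (2.09 without A, 1.57 without B and 3.12 without C). Those of Usp45, Usp36, Usp26 and Ube2k were kept. The light side of Usp45 held at most 1 read and that of Usp33 at most 2 reads in any gradient, so their values depend on the pseudocount and bound no fold.

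In 4-cell embryos Usp24 was heavy, at 33.2, 21.8 and 106 CPM on the heavy side against 5.83, 0.156 and 1.22 on the light side (log2 difference 4.07, SE 0.74, adjusted p = 1.54e-04). So was Usp21 (log2 difference 1.13, SE 0.40, adjusted p = 0.0439). Usp39 was light, at 1.31, 0.467 and 0.925 CPM on the heavy side against 29.8, 226 and 12.7 on the light side (log2 difference -4.62, SE 0.91, adjusted p = 3.87e-04), and so were Usp26 (log2 difference -4.27) and Usp32 (log2 difference -3.79). Usp28 was light too, at 0.0815, 2.35 and 0.0133 CPM on the heavy side against 0.0443, 142 and 53.04 on the light side (log2 difference -3.70, SE 1.1, adjusted p = 0.018), with gradient A near 0 on both sides. The light calls at this stage came beside the gradient A that stands apart. They also came beside oocyte marker sums that were higher on the light side (1762, 1248 and 931.2 CPM in A, B and C) than on the heavy side (185.7, 574.6 and 422.8 CPM). The part of either in these calls was not tested. Lost when 1 gradient was left out were the calls of Usp21 (0.95 without A and 0.78 without B), Usp39 (-3.29 without B), Usp32 (-2.80 without A) and Usp28 (-2.84 without B and -2.68 without C), while those of Usp24 and Usp26 were kept. The call of Usp26 was lost without fraction 1 (-1.23) and likewise without the shallow libraries. The heavy side of Usp32 held at most 3 reads in any gradient.

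At the 8-cell stage Usp33 (log2 difference 3.76, SE 1.0, adjusted p = 0.0125) and Usp36 (log2 difference 2.09, SE 0.66, adjusted p = 0.0376) were heavy, Usp36 having been light at the 2-cell stage. Ube2s of the APC/C was heavy too, at 1137, 891 and 964 CPM on the heavy side against 487, 396 and 584 on the light side (log2 difference 1.04, SE 0.23, adjusted p = 0.00208). Light were Usp34 (log2 difference -3.15, SE 0.65, adjusted p = 6.78e-04), Usp3 (log2 difference -3.09), Usp9x (log2 difference -2.78) and Ube2k (log2 difference -2.77). Oocyte marker sums were higher on the light side at the 8-cell stage too, at 814.8, 553.2 and 602.9 CPM in A, B and C. On the heavy side they were 147, 153.1 and 246.4 CPM, and their part in the light calls was not tested. Without 1 gradient the calls of Usp33 (3.93 without B), Usp36 (1.95 without A, 2.62 without B and 1.71 without C), Ube2s (0.94 without A and 0.97 without B), Usp3 (-3.64 without B and -3.41 without C) and Usp9x (-1.88 without B and -3.07 without C) were lost and those of Usp34 and Ube2k kept. In morulae Ube2k (log2 difference -3.06, SE 0.50, adjusted p = 3.21e-05), Usp34 (log2 difference -3.04) and Usp40 (log2 difference -2.69) were light. The calls of Usp34 (-2.19 without A) and Usp40 (-2.13 without A) were lost in the same way. In blastocysts Ube2k (log2 difference -2.64, SE 0.50, adjusted p = 7.58e-04) and Usp50 were light. Usp50 was at 6.50, 6.12 and 6.84 CPM on the heavy side against 47.2, 32.8 and 27.8 on the light side (log2 difference -2.27, SE 0.56, adjusted p = 0.0137). The calls lost were those of Ube2k (-2.48 without B) and Usp50 (-2.06 without A, -2.28 without B and -2.46 without C).

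Ube2k was light at each stage from the 2-cell stage on, and much of its CPM lay in fraction 1. Its share of gradient CPM in fraction 1 was 34.2% in MII, 46.8% in zygotes, 84.3% ± 4.21 (SD, n = 3) at the 2-cell stage and 59.0%, 63.4%, 67.6% and 58.9% at the 4 later stages. At the 2-cell stage fraction 1 of gradients A, B and C held 3359, 4214 and 3205 CPM of Ube2k, and fraction 2 held 36.8, 86.4 and 70.4 CPM. Other members with most of their CPM in fraction 1 at a stage were Usp34 at the 2-cell stage (70.6%), Usp9x (71.9%) and Usp3 (63.6%) at the 8-cell stage and Ube2w at the 4-cell stage (61.3%). The fraction 1 libraries of all 4-cell and 8-cell gradients and of 2-cell gradients A and B are among the 11 with under 0.5 M reads. In an alternative added after seeing the data, with fraction 1 left out, the Ube2k difference at the 2-cell stage was 0.84 in place of -3.06, and at the 4-cell, 8-cell, morula and blastocyst stages it was -0.68, -1.22, -1.32 and -1.29, none of them called. In zygotes the same step gave 1.93 (adjusted p = 0.012), a heavy call. With edgeR on summed reads the Ube2k difference was -0.165 at the 2-cell and 0.101 at the 4-cell stage. Without fraction 1 the calls of Usp34 at the 2-cell stage (-1.13) and of Usp9x (-0.42) and Usp3 (-1.70) at the 8-cell stage were lost too, and so was that of Usp34 in morulae (-1.43). In all, 27 of the 58 heavy or light calls did not pass without fraction 1. An antisense gene, Gm42726, overlaps Ube2k and another, Gm15563, overlaps Usp3. Without a stated strand setting some of their reads may belong to these neighbours.

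**Figure D5:**
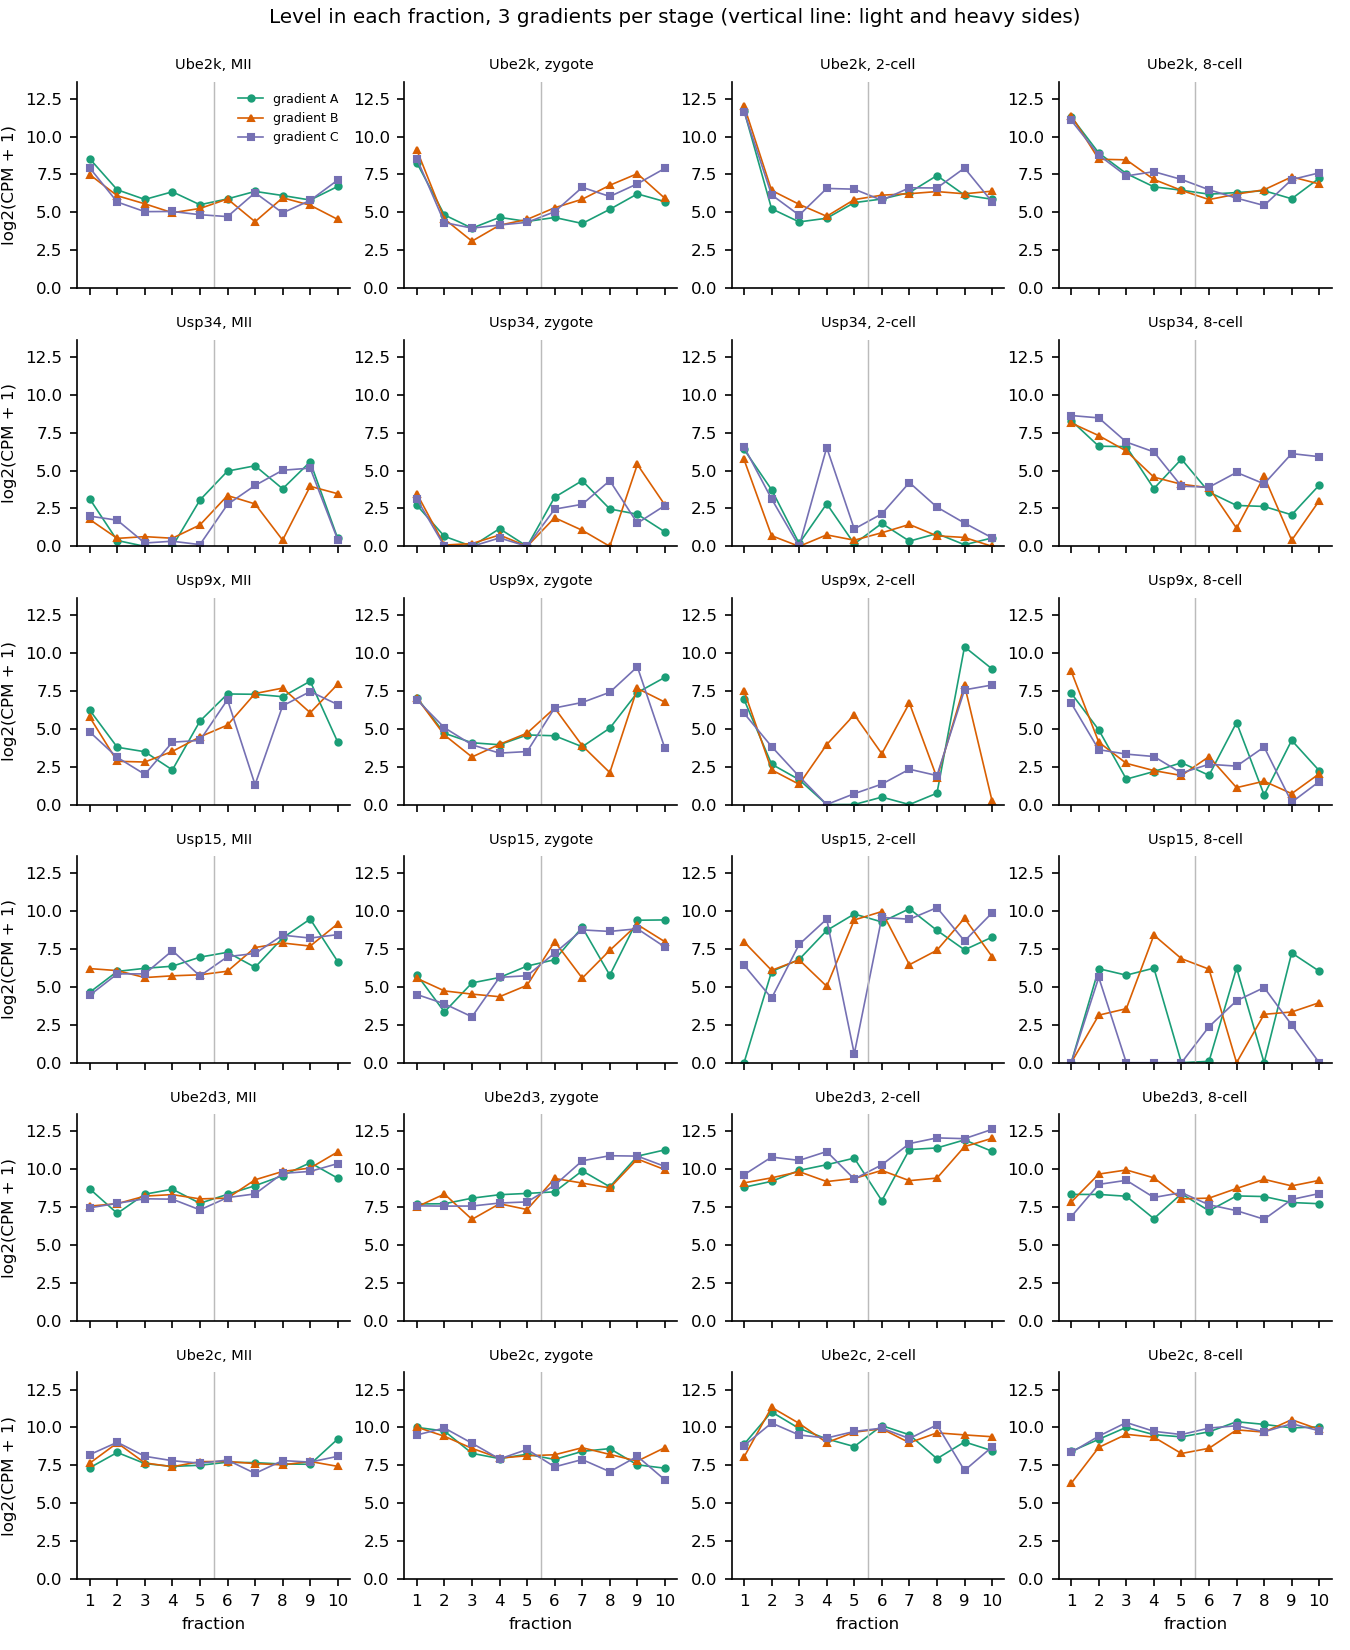
Level of 6 members, as log2(CPM + 1), in each of the 10 fractions of gradients A, B and C at 4 stages, with a vertical line between the light and heavy sides. Ube2k peaks in fraction 1 in every panel, and Ube2d3 is higher in fractions 8 to 10 than in fractions 1 to 5 in MII and zygotes, while Usp15 at the 8-cell stage jumps between 0 and high values from one fraction to the next.

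The last comparison asked whether a member's heavy-side RNA changed between stages by more or less than its transcriptome level, as an interaction of stage and kind of library (Usp and Ube2 genes called higher and lower, out of 15165 genes). Between GV and MII 1 Usp and 3 Ube2 genes were called higher and 1 Usp gene lower, against 6.94% and 1.27% of all genes. From MII to the zygote 1 Ube2 gene was called in each direction and no Usp gene, against 0.930% and 1.35%. From the zygote to the 2-cell stage 13 Usp and 4 Ube2 genes were lower and none higher, against 1.58% and 26.0%. From the 2-cell to the 4-cell stage 4 Usp and 3 Ube2 genes were higher and 14 and 7 lower, against 13.8% and 18.0%. From the 4-cell to the 8-cell stage 4 and 5 were higher and 2 Usp genes lower, against 12.0% and 1.77%. From the 8-cell stage to the morula 1 of each family was higher and 1 Usp gene lower, against 3.97% and 2.48%. From the morula to the blastocyst 1 Ube2 gene was higher, against 0.468% and 1.73%. The share of Usp genes called lower between zygote and 2-cell (27.1%) was thus near that of all genes. Quantile normalization turned the split over all genes from 239 higher and 3938 lower to 1411 and 1369 at this step (median change -0.89 against 0.04) and from 1816 and 269 to 844 and 988 between the 4-cell and 8-cell stages (median 0.40 against -0.04). It also moved the split from 1053 and 193 to 1038 and 368 between GV and MII and from 71 and 262 to 184 and 210 between morula and blastocyst. Directions at these steps are thus relative to the scaling.

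Ube2u had the largest difference during maturation (difference of changes 2.94, SE 0.41, adjusted p = 5.53e-07) while its transcriptome level fell from 19.5 ± 3.15 to 7.52 ± 0.74 CPM. Its heavy side held 1.61, 1.69 and 0.56 CPM in GV and 12.0, 3.89 and 4.71 CPM in MII. Ube2b (difference of changes 2.75, SE 0.76, adjusted p = 0.0136), Usp11 (difference of changes 2.49, SE 0.80, adjusted p = 0.04) and Ube2w (difference of changes 1.89) were also called higher and Usp19 lower (difference of changes -1.63). The transcriptome levels of Ube2b, Usp11 and Ube2w fell at this step, so a higher call alone does not show a gain on the heavy side. Without 1 replicate letter these calls were lost, at Ube2b (2.90 without B and 2.96 without C), Usp11 (2.02 without B, 2.57 without C and 2.53 without D), Ube2w (1.41 without A, 2.13 without B and 1.96 without D) and Usp19 (-1.13 without A, -1.67 without B, -1.99 without C and -1.73 without D). With the replicate letter as a block the calls of Usp11 and Ube2w were also lost. From MII to the zygote Ube2c was higher (difference of changes 1.27, SE 0.28, adjusted p = 0.0054) and Ube2u lower (difference of changes -1.47, SE 0.41, adjusted p = 0.0361). Both calls were lost without a letter, at Ube2c (1.0 without B) and Ube2u (-1.27 without A, -1.24 without C and -1.47 without D).

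From the zygote to the 2-cell stage the lowest values were those of Usp36 (difference of changes -5.51, SE 0.66, adjusted p = 1.35e-08), Usp31 (difference of changes -4.79, SE 0.75, adjusted p = 3.57e-06), Usp5 (difference of changes -4.76, SE 1.2, adjusted p = 0.00288) and Usp48 (difference of changes -4.61). The call of Usp5 (-3.22 without B and -4.07 without C) was lost without a letter. From the 2-cell to the 4-cell stage Usp34 (difference of changes 4.69, SE 0.61, adjusted p = 5.99e-08), Usp21 (difference of changes 2.86, SE 0.47, adjusted p = 6.88e-06), Usp24 (difference of changes 2.00) and Usp26 (difference of changes 1.83) were higher on the heavy side than their transcriptome change. Usp53 (difference of changes -4.54, SE 0.66, adjusted p = 5.37e-07), Usp8 (difference of changes -4.19, SE 0.77, adjusted p = 3.79e-05), Usp39 (difference of changes -4.09) and Usp33 (difference of changes -3.93) were lower. Here the calls of Usp24 (1.48 without A, 0.83 without C, 2.03 without D, 1.95 without E, 1.95 without G and 2.02 without H), Usp26 (1.62 without B and 1.44 without C) and Usp33 (-1.23 without A) were lost. The APC/C enzymes parted at this step: Ube2c, whose transcriptome level rose, was lower (difference of changes -1.70, SE 0.28, adjusted p = 6.80e-06) and Ube2s higher (difference of changes 1.43, SE 0.37, adjusted p = 0.00259). Both kept their calls when a replicate was left out, but that of Ube2c was lost with edgeR (-0.979) and that of Ube2s when the fit held those 2 stages alone (1.43). Ube2c was at 594, 734 and 665 CPM on the heavy side against 913, 1081 and 782 on the light side at the 2-cell stage. It was at 416, 605 and 1045 CPM on the heavy side against 318, 486 and 934 on the light side at the 4-cell stage.

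From the 4-cell to the 8-cell stage Usp39 (difference of changes 4.45, SE 0.88, adjusted p = 3.07e-04), Ube2e3 (difference of changes 3.45, SE 0.81, adjusted p = 0.0023), Usp31 (difference of changes 3.44) and Ube2z, the E2 that works with Uba6 (difference of changes 3.41), were higher. Usp24 (difference of changes -4.28, SE 0.78, adjusted p = 1.04e-04) and Usp16 (difference of changes -1.72) were lower. Without 1 replicate letter the calls of Ube2e3 (2.78 without A and 2.41 without B), Ube2z (3.29 without A and 2.08 without B) and Usp16 (-0.57 without A, -1.62 without B and -1.72 without D) were lost, and under the replicate block those of Ube2a and Usp16. From the 8-cell stage to the morula Ube2l6 (difference of changes 4.06, SE 0.68, adjusted p = 4.21e-05) and Usp53 (difference of changes 2.64) were higher and Usp21 lower (difference of changes -1.67). Without a letter the calls of Usp53 (1.65 without C) and Usp21 (-1.44 without A, -1.64 without C and -1.56 without D) were lost. In the blastocyst Ube2u was higher (difference of changes 1.77, SE 0.41, adjusted p = 0.00841), and the call of Ube2u (1.91 without B, 1.68 without C and 1.44 without D) was lost without 1 letter.

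Fractions and transcriptomes also differed in level for single members. On the log2 scale the mean of all fractions lay above the transcriptome by 5.30 in GV oocytes and 6.20 in zygotes for Usp20, by 5.28 at the 8-cell stage for Usp21 and by 4.33 in zygotes for Ube2g2, and for Usp34 it lay below by up to 4.65. The reason for these gaps was not tested.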

How the data were processed

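Poly(A)-primed, amplified libraries were made from pools of whole oocytes or embryos and from each sucrose fraction, per the labels' protocols. The deposited values are CPM values (counts scaled to library size) per gene symbol, made by the authors with Trim Galore 0.6.7, FastQC, HISAT2 2.2.1, featureCounts 2.0.1 and edgeR on build GRCm39, per the submitters' processing notes. The strand setting and the annotation release are not given in the sources used here. In 9 columns the deposited values sum to more than CPM values can because rows repeat, so they were recorded as signal with the authors' scaling and used as CPM. Of the symbols, 159 fell in 76 groups of identical rows, of which 1 row each was used, leaving 15771. Every column matched 1 sample.

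Stage-to-stage changes, the heavy-to-light difference and their interaction were fitted over all stages with limma 3.58.1 in R 4.3.3 (eBayes with a trend) on log2(CPM + 1), for genes with at least 1 CPM in at least 4 transcriptome samples or 3 samples with fractions. Benjamini-Hochberg adjustment ran over all genes tested, and a call needs an adjusted p under 0.05 and a change of at least 1. On simulated data the transcriptome fit from the 2-cell to the 4-cell stage recovered 38% of 2-fold and 98% of 4-fold changes. The heavy-to-light fit in MII, 2-cell, 4-cell and blastocyst recovered 0 to 4% of 2-fold changes. It recovered 2 to 10% of 4-fold and 30 to 52% of 16-fold changes, so a missing call does not show a missing difference. Unchanged genes were called in 0.31 to 0.539% of cases. The simulated heavy and light sides were drawn at the summed depth of their fractions, whereas the fit averages CPM with each fraction weighted alike. The added noise of shallow fraction 1 libraries is thus not simulated, and these rates need not hold for the heavy-to-light fit. The interaction was not simulated. The CPM steps gave whole reads in 271 of 272 libraries (100% of values within 0.05 reads), and edgeR 4.0.16 on these reads is an alternative. Reads carry no molecular identifiers, so depth covers counting error only. The other alternatives were a pseudocount of 0.5, no filter, quantile normalization, only the groups compared in the fit, each replicate left out, the replicate as a block, fractions 7 to 10 against 1 to 4, no fraction library under 0.5 M reads and, added after seeing the data, no fraction 1.

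Genes named are the called members with the largest changes, 6 per direction for each step between stages and 4 per direction for the fraction tests, and members of the role groups. Values for each sample go to the 5 largest of each family, the E2 enzymes of the APC/C and the histone Usp genes. The members, lists and role groups were chosen with earlier results of these data known, so no pattern here is independent support. The heavy and light side of a letter come from 1 gradient, and their deviations from the stage mean correlated over genes by 0.008 to 0.253. Pools of the 2-cell stage are lettered E to H and were used without a letter in the block. Transcript lengths are from GENCODE M21 and 5' flanks from RefSeq (GRCm38.p6), matched by symbol. Values of 1 member are not reported here, and it is left out of the plot of levels by stage.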

Additional observations from a re-analysis of the deposited data

Results flagged for a closer look

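In 6 members 1 pool stood far from the other 3 of its stage, by more than Dixon's 95% critical value for 4 values allows. Chance gives about 1 such group in 20, and 8 of 165 groups tested were past this limit. Usp11 was at 0.75 CPM in pool C of the 4-cell stage and at 0 in the others. Usp27x was at 1.62 CPM in 8-cell pool B, with the others between 0 and 0.0577 CPM. Usp49 was at 3.99 CPM in the same pool B, against 1.21 to 1.44 CPM, and Usp51 at 1.44 CPM in 8-cell pool D with the others at 0. Usp28 was at 236 CPM in zygote pool D, against 207.5 to 211 CPM, and Usp46 at 294 CPM in 2-cell pool H, against 229.9 to 235 CPM. The summed Usp level had 1 MII pool at 4537 CPM, below the median of 5679 CPM, and the summed Ube2 level 1 zygote pool at 6100 CPM, below the median of 6501 CPM.

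The heavy-to-light difference of 5 Usp genes differed between stages by limma's test of the difference itself. Every pair of the 8 stages was searched, with adjustment over genes within each pair but not over the pairs. The share of all genes that pass the same test was not counted, so these differences have no background beside them. For Usp34 the MII value lay above that of the 2-cell stage by 5.63 on the log2 scale (adjusted p = 8.9e-05), the 4-cell stage by 4.81 (adjusted p = 0.00053), the 8-cell stage by 5.79 (adjusted p = 6.6e-05) and the morula by 5.68 (adjusted p = 0.0001). For Usp9x the MII value lay above the 8-cell value by 5.38 (adjusted p = 0.0011), and so did the 2-cell value by 4.97 (adjusted p = 0.0024). Both genes had most of their CPM in fraction 1 at 1 of these stages, Usp34 with 70.6% at the 2-cell and Usp9x with 71.9% at the 8-cell stage, and without fraction 1 their heavy-to-light differences at those stages were -1.13 and -0.42. The 2-cell minus 8-cell difference of Usp36 was -6.11 (adjusted p = 5.8e-05). The 2-cell value of Usp46 lay above its 4-cell value by 4.59 (adjusted p = 0.0052), and that of Usp50 above its blastocyst value by 4.77 (adjusted p = 0.00012).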

How the results depend on the processing

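Counts of members called in the transcriptomes stayed within 1.5 times of the reported counts under every alternative, except from the 4-cell to the 8-cell stage. There 2 members were called, against 3 with a pseudocount of 0.5, 4 with edgeR, 0 with quantile normalization (19 with an unadjusted p under 0.05 by limma), 0 with only the groups compared (17) and 1 to 2 without 1 replicate. Of 151 transcriptome calls, 109 were kept under every alternative, but of 58 heavy or light calls none was, and of 67 interaction calls 11 were. Depth limits fraction 1 above all.

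The heavy and light calls depended most on the samples in the fit. With only the gradients of a stage, 7 were called in MII (reported 3), 18 in zygotes (3), 0 at the 2-cell (20) and 4-cell stage (19), 2 at the 8-cell stage (8), 0 in morulae (3, with 22 at an unadjusted p under 0.05 by limma) and 6 in blastocysts (2). Leaving out 1 gradient gave 0 to 2, 0 to 3, 11 to 14, 10 to 15, 3 to 6, 1 to 3 and 0 to 1 calls from MII to the blastocyst. edgeR called 1 in zygotes, 3 at the 8-cell stage and 0 in morulae and blastocysts (7 and 5 at an unadjusted p under 0.05). Without the shallow libraries 1 was called in MII, 9 at the 4-cell and 2 at the 8-cell stage, and without fraction 1 there were 6 in zygotes, 9 at the 4-cell stage, 3 at the 8-cell stage, 1 in morulae and 0 in blastocysts (3 at an unadjusted p under 0.05). Quantile normalization gave 11 at the 4-cell stage and 6 in morulae, and fractions 7 to 10 against 1 to 4 gave 6 in morulae. In GV oocytes no alternative called a member, with 4 to 16 at an unadjusted p under 0.05.

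For the interaction, the fit with only the groups compared called 14 members from GV to MII (reported 5), 10 from MII to zygote (2), 9 from the 2-cell to the 4-cell stage (28), 2 from the 4-cell to the 8-cell stage (11), 1 from the 8-cell stage to the morula (3) and 5 from morula to blastocyst (1). Without 1 replicate the ranges were 1 to 6, 1 to 3, 12 to 21, 22 to 33, 7 to 19, 1 to 8 and 0 to 1 over the 7 steps. A pseudocount of 0.5 gave 3 from GV to MII and 1 from MII to zygote, fractions 7 to 10 gave 3 from GV to MII, edgeR gave 9 from zygote to 2-cell (17) and 0 from morula to blastocyst (5 at an unadjusted p under 0.05), and quantile normalization 6 from the 4-cell to the 8-cell stage.

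With the replicate block 3 members were called in the interaction from GV to MII (reported 5) and 9 from the 4-cell to the 8-cell stage (11). The block left the transcriptome counts at 28, 11, 2, 15 and 16, and of the heavy and light calls only that of Ube2f at the 2-cell stage was lost. Pools sharing a letter between neighbouring stages correlated in their deviations by -0.178 to 0.169 over genes, so across stages the letter is only a number.

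Some values changed sign, and the cause was not tested. Without fraction 1 Ube2k was heavy in zygotes (1.93) and at the 2-cell stage (0.839). At the 4-cell stage Usp40 was at 0.01 under quantile normalization, Ube2g2 at 1.88 without gradient A (from -2.34 to 1.88 over the gradients left out), and Usp1 at 2.41 and Ube2k at 0.101 with edgeR. edgeR also gave 0.0116 for Ube2w and 0.181 for Usp9x at the 8-cell stage. For the interaction from zygote to 2-cell, quantile normalization gave 1.12 for Ube2u, 1.53 for Ube2v1 and 1.98 for Usp49. From the 2-cell to the 4-cell stage, leaving out 1 replicate letter gave -2.78 to 3.09 for Ube2o, -4.08 to 2.36 for Ube2j1 and -2.27 to 3.51 for Usp5, all highest without A, and -1.31 to 1.30 for Usp16, highest without C. At this step edgeR gave 0.733 for Usp40, -5.55 for Ube2cbp, 0.130 for Usp45, 2.19 for Usp48 and -7.72 for Usp51. From the 4-cell to the 8-cell stage Usp15 was at -2.52 without A and at up to 2.05 without another letter.

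Named calls lost under quantile normalization were those of Usp27x (-0.974) and Usp44 (-0.79) at the 4-cell stage, Usp31 (0.996) and Usp37 (-0.907) in the morula and Ube2u in MII (-0.522). With edgeR the calls of Usp5 (0.994) and Usp2 (0.861) in the blastocyst and Ube2b at the 2-cell stage (0.985) were lost.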
